A study of Mus musculus with 18 samples.

Results

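Cish, Socs1, Socs2, Socs3, Dusp1, Dusp2, Dusp5, Dusp6, Spry1 and Spred1 encode inhibitors of cytokine and MAP kinase signalling, many of which are switched on by the signals they restrain. They were chosen by symbol, and all 10 were found among the 23038 genes of the series, in mouse haematopoietic stem cells (HSCs) with and without Mettl3, the catalytic subunit of the mRNA methyltransferase. Adult C57BL/6 mice were either wild-type or Mx1-cre; Mettl3fl/fl. In the second genotype the Mx1 promoter, which responds to interferon, drives the recombinase that removes the floxed Mettl3 gene. According to the labels' protocol, 5 doses of 10 µg pIpC, a double-stranded RNA mimic that elicits interferon, were injected and the mice were killed 10 days after the final dose. The same protocol is attached to the wild-type samples, so the controls share the pIpC treatment, and the labels name no Cre or floxed allele for them. Mx1-cre acts in interferon-responsive cells in general and is not restricted to HSCs.

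Bone marrow cells sorted as Lineage- Sca1+ cKit+ CD150+ CD48- (3000 per sample) gave polyadenylated RNA, which was bound to 1.25 µg of antibody that recognises N6-methyladenosine (m6A), a methyl mark on adenosines within mRNA. RNA was sequenced before the antibody step (input), from the collected washes (unbound) and after release from the antibody (m6A-tagged). Each fraction of each genotype had 3 libraries, 18 in all, described as biological replicates in the series' design text. The study asked which HSC transcripts carry m6A that depends on Mettl3.

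As background, cytokine receptors activate JAK kinases, which phosphorylate STAT transcription factors, while receptor kinases activate RAS and the MAP kinases. STATs switch on Cish and the Socs genes, whose SH2-domain proteins then block the receptor or the JAK, or bring a ubiquitin ligase to them. MAP kinases switch on dual-specificity phosphatases (Dusp) that strip the activating phosphates from MAP kinases, and Sprouty and Spred proteins that act further upstream, between the receptor and RAF. In HSCs such signals arrive through the stem cell factor receptor Kit and the interferon receptors, among others.

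Levels are RPKM (reads per M, or 1e6, reads of the library and per kilobase of the gene). Each is the authors' mean of 3 libraries, so a difference has no replicate check unless single libraries are named. The effective library size worked out from the values was 24.3 to 37.2 M reads in wild-type libraries and 9.42 to 33.6 M in Mettl3-deficient ones. Where 3 levels are given together, they stand in the order input, unbound, m6A-tagged. Mettl3 itself, which checks the labels, had levels of 36.4, 33.2 and 36.1 RPKM in wild-type against 19.6, 11.2 and 17.4 RPKM in Mettl3-deficient cells. Its input difference was -0.86 on the log2(RPKM + 1) scale, and reads from outside the deleted stretch could still count here. All 15 HSC markers reached 1 RPKM in at least 1 group, and their summed level was 1091 to 1363 RPKM over the 6 groups. Markers of other blood cells differed between the genotypes. In input, 8 neutrophil markers summed to 6486 RPKM in wild-type against 1186 RPKM in Mettl3-deficient cells (range over the 6 groups 1186 to 9418), and 6 eosinophil and mast cell markers to 800 against 19.7 RPKM (19.7 to 1178). The sums were 778 against 400 RPKM for 7 monocyte and macrophage markers (333 to 987) and 669 against 261 RPKM for 6 megakaryocyte markers (261 to 986). For 6 erythroid markers they were 247 against 33.1 RPKM (33.1 to 445), with Hba-a1 below 1 RPKM in every group. T and NK cell markers (8) summed to 213 against 56.8 RPKM (56.8 to 388), with Cd3e, Cd3g, Cd8a and Ncr1 below 1 RPKM throughout. B cell markers (6) summed to 94.8 against 91.5 RPKM (26.6 to 156), with Ms4a1 and Ebf1 below 1 RPKM. Endothelial and stromal markers (6) summed to 23.4 against 59.3 RPKM (7.18 to 59.3), and Cdh5, Kdr, Col1a1, Cxcl12 and Lepr stayed below 1 RPKM. The part of these cells in the results that follow was not tested. In such bulk RNA, fewer cells expressing a gene and less RNA per cell cannot be told apart.

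Cish and Socs2, inhibitors that STAT5 induces, were each about 4-fold higher in the input RNA of Mettl3-deficient cells. Cish (gene 12700, GRCm38 chr9:107296659-107302784) encodes a protein that binds activated receptors and competes there with STAT5. Its levels were 31.8, 8.93 and 55.2 RPKM in wild-type against 132, 79.4 and 148 RPKM in Mettl3-deficient cells. All 3 Mettl3-deficient levels lay above all 3 wild-type ones. The fractions are not replicates, and how many of all genes have levels so separated was not counted. Socs2 (chr10:95383903-95417321) is best known for damping growth hormone signals. Its levels were 14.3, 1.75 and 25.8 RPKM in wild-type against 56.4, 19.4 and 63.9 RPKM in Mettl3-deficient cells. The wild-type unbound level of Socs2 was thus far below the others. Between genotypes the input difference, as log2((RPKM + 1)/(RPKM + 1)), was 2.02 for Cish and 1.91 for Socs2. These differences ranked 22 and 26 from the highest of the 6295 genes that were compared, those whose 6 levels average 10 RPKM or more.

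Socs1 and Socs3 carry a kinase inhibitory region with which they block JAKs directly. Socs1 (chr16:10783808-10785536), a strong brake on interferon signals, had levels of 6.19, 2.22 and 7.87 RPKM in wild-type against 10.4, 17.8 and 27.1 RPKM in Mettl3-deficient cells. Its unbound level was the lowest of the 3 in wild-type cells but lay above input in Mettl3-deficient cells. Socs3 (chr11:117966079-117970336), the main brake on signals through gp130, was low throughout, with levels of 3.69, 1.59 and 4.93 RPKM in wild-type against 4.99, 3.58 and 7.32 RPKM in Mettl3-deficient cells. Neither gene was 2-fold higher in Mettl3-deficient input, where the log2 difference was 0.67 for Socs1 and 0.35 for Socs3.

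STAT dimers bind the letters TTCNNNGAA, which read alike on both strands. RefSeq promoters of build GRCm38.p6, 300 bases each from 250 before to 50 after the start site, were searched for them, and 8.3% of 32851 hold them. Of the feedback inhibitor genes, 9 had a promoter sequence and Socs2 had none. Cish holds 2 matches, which begin at bases 1 and 12 counted from its start site, and 0.457% of promoters hold 2 or more. Socs3 holds 1 match, which begins 154 bases before its start. Both stretches are shown because Cish had the highest input difference of the 10 genes in favour of Mettl3-deficient cells and Socs3, the other gene with the letters, a small one. They run 5′ to 3′, chr9:107296559-107296678 on the plus strand for Cish and chr11:117969477-117969556 on the minus strand for Socs3, with matches in capitals.
Cish: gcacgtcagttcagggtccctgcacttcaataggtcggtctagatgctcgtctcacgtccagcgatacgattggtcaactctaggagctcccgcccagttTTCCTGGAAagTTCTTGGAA
Socs3: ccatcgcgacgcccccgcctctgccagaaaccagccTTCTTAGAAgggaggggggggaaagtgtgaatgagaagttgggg
A match describes letters in this window and is not a measured binding site, and a link of the letters to the levels was not tested.

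Among the phosphatases, Dusp1 was 2-fold higher in Mettl3-deficient input and Dusp2, Dusp5 and Dusp6 were not. Dusp1 (chr17:26505591-26508472), a nuclear phosphatase that acts mainly on the stress-activated kinases p38 and JNK, had levels of 29.7, 9.54 and 32.3 RPKM in wild-type against 65.1, 36.5 and 89.5 RPKM in Mettl3-deficient cells. As for Cish and Socs1, every Mettl3-deficient level of Dusp1 lay above every wild-type one. Its log2 input difference was 1.11. Dusp2 (chr2:127336159-127338377), a nuclear phosphatase of blood cells, was the highest phosphatase of the 10 genes in each group, at 94.1, 60.1 and 137 RPKM in wild-type against 133, 88.1 and 173 RPKM in Mettl3-deficient cells. Its levels overlapped between genotypes, with a log2 input difference of 0.50.

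Dusp5 and Dusp6 both act on ERK, Dusp5 in the nucleus and Dusp6 in the cytoplasm. Dusp6 (chr10:99263231-99267489) had levels of 20.0, 1.64 and 28.6 RPKM in wild-type against 20.6, 8.23 and 25.1 RPKM in Mettl3-deficient cells. Its input and m6A-tagged levels were close between genotypes, and its unbound level was higher in Mettl3-deficient cells. Dusp5 (chr19:53529145-53541809) had levels of 11.1, 0.390 and 17.1 RPKM in wild-type against 8.72, 5.01 and 14.9 RPKM in Mettl3-deficient cells, the same pattern on a lower level. With a mean of 9.54 RPKM, Dusp5 fell just below the 10 RPKM minimum, while Socs1, at 11.9 RPKM, was just above it. The log2 input difference was 0.04 for Dusp6 and -0.31 for Dusp5.

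A further pair of motifs were searched in the same promoters, the CArG box bound by serum response factor and the letters TGACGTCA bound by CREB, both of which read alike on the 2 strands. The CArG box is in 1.63% of promoters, and of the feedback inhibitor genes Dusp5 alone holds it. Its 2 matches begin 82 and 72 bases before the start site, directly next to each other, and 0.0183% of promoters hold 2 or more. TGACGTCA is in 1.79% of promoters and, of these genes, in Dusp1, beginning 143 bases before the start. Dusp2 and Dusp6, like Dusp5 not 2-fold higher in input, hold neither motif, and a link of the motifs to the levels was not tested. The stretches of the phosphatase genes with a match are shown. They run 5′ to 3′, chr19:53529035-53529114 on the plus strand for Dusp5 and chr17:26508573-26508652 on the minus strand for Dusp1, with matches in capitals.
Dusp5: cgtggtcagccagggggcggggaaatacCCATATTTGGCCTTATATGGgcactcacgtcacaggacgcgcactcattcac
Dusp1: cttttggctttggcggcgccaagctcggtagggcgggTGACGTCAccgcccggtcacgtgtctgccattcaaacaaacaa

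Spry1 and Spred1, which restrain the step from receptor kinases to RAF, were not higher in Mettl3-deficient input. Spred1 (chr2:117121071-117182279), which brings the RAS inactivator neurofibromin to the membrane, had levels of 7.54, 0.929 and 13.3 RPKM in wild-type against 0.685, 0.855 and 1.51 RPKM in Mettl3-deficient cells. Its log2 input difference was -2.34, the only one of the 10 that was 2-fold lower. Spry1 (chr3:37639947-37644599), a Sprouty protein, had levels of 3.69, 0.0203 and 4.06 RPKM in wild-type against 2.70, 0.749 and 5.62 RPKM in Mettl3-deficient cells. Its wild-type unbound level was the lowest found for any of the 10 genes. That level lies near the floor set by the 1 read added per library, so it stands for few reads, if any. Both genes averaged under 10 RPKM and were left out of the counts.

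**Figure D1:**
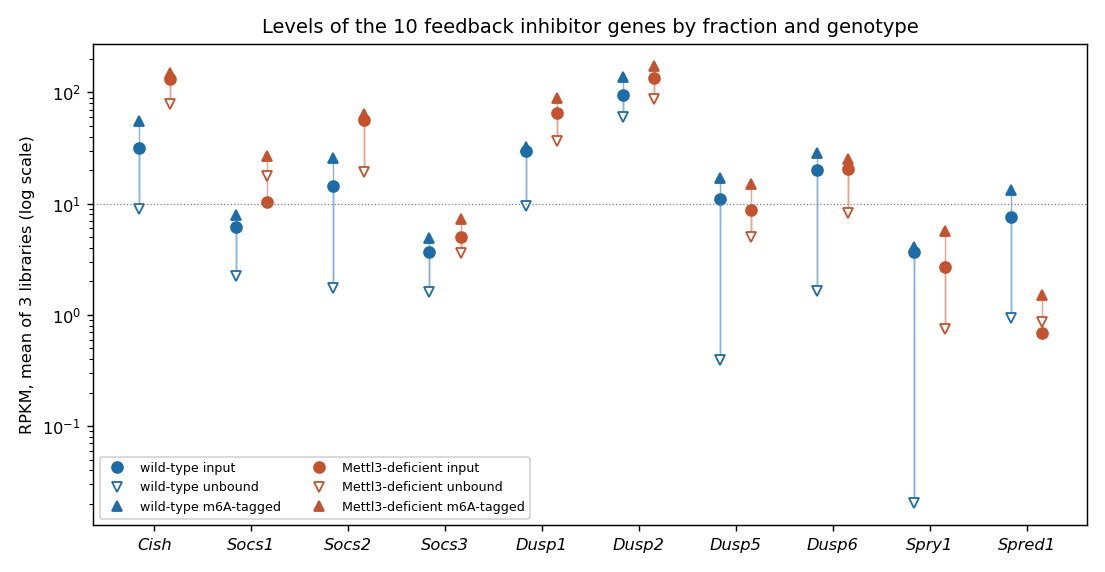
RPKM (log scale, mean of 3 libraries) of the 10 feedback inhibitor genes. Circles are input, open triangles unbound and filled triangles m6A-tagged RNA, blue wild-type and orange Mettl3-deficient, and the dotted line marks 10 RPKM. Cish, Socs1 and Dusp1 lie wholly higher in Mettl3-deficient cells, and Spred1 input and m6A-tagged RNA lie lower. Every wild-type unbound level is the lowest of its 3.

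Of the 10 genes, 6 passed the minimum, namely Cish, Socs1, Socs2, Dusp1, Dusp2 and Dusp6, and the counts that follow are over these 6. Socs1 passed it through its Mettl3-deficient levels, which averaged 18.4 RPKM against 5.42 RPKM in wild-type, so its higher levels follow in part from the choice and the counts are also given without it. In input, 3 of 6 (Cish, Socs2, Dusp1) were 2-fold higher in Mettl3-deficient cells and 0 were lower, or 3 of 5 without Socs1, while 2.38% of all genes compared were higher and 6.67% lower. Over all 10 genes, 3 were higher and 1 (Spred1) lower. The median log2 difference was 0.89 over the 6 and 0.43 over all 10, and that of all genes compared was -0.05. In m6A-tagged RNA, 4 of 6 (Cish, Socs1, Socs2, Dusp1) were 2-fold higher and 0 lower, or 3 of 5 without Socs1, against 6.02% and 7.15% of all genes. Over all 10, 4 were higher and 1 lower, Spred1 with -2.51, and the median was 0.44. Socs1 led them with 1.66, rank 64 from the highest, followed by Dusp1 with 1.44, Cish with 1.41 and Socs2 with 1.27. Dusp2 and Dusp6 differed by 0.34 and -0.18.

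The unbound fraction differed most. Here the Mettl3-deficient level was 2-fold higher for 5 of 6 and lower for 0, or higher for 4 of 5 without Socs1, but such differences were frequent in this fraction, at 19.7% of all genes higher and 22.7% lower. The log2 differences were 3.02 for Cish, 2.89 for Socs2, 2.55 for Socs1, 1.83 for Dusp1 and 1.81 for Dusp6, and that of Dusp2 was 0.54. The 6 had a median of 2.19 and all 10 a median of 1.82, with 6 higher and 0 lower, and all genes compared had a median of 0.02.

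**Figure D2:**
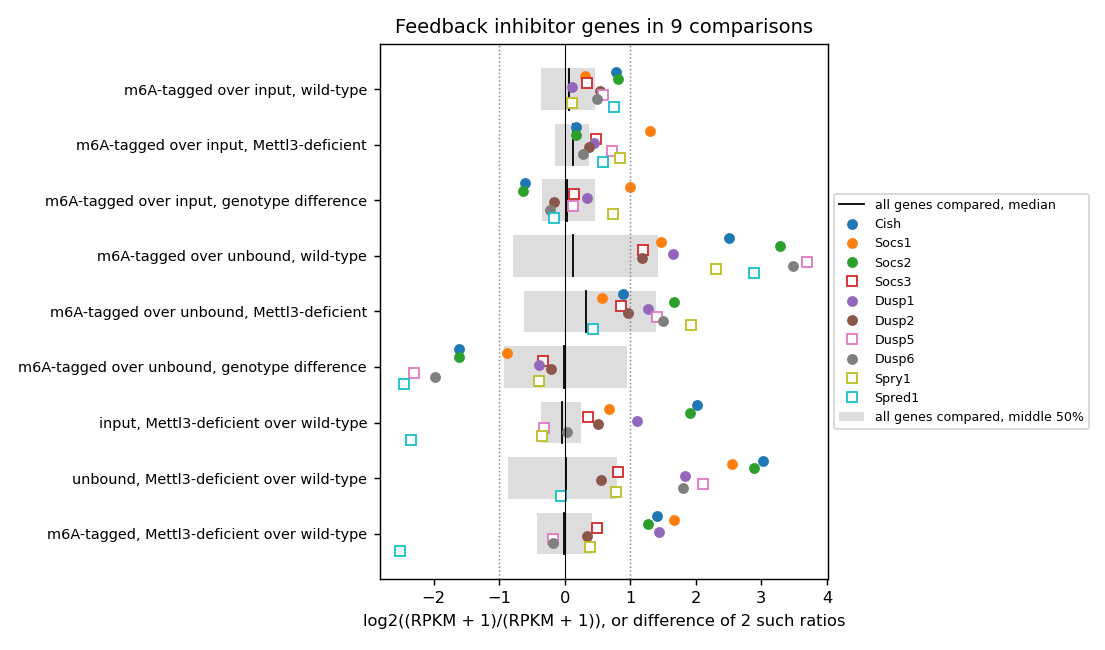
Log2 ratio of each feedback inhibitor gene in 9 comparisons, with 1 RPKM added to every level, and, for genotype differences, the Mettl3-deficient minus the wild-type log2 ratio. Filled circles are the 6 genes compared, open squares the 4 under 10 RPKM, grey bars the middle 50% of all genes compared with their median as a black line, and dotted lines 2-fold. Cish, Socs2 and Dusp1 lie past 2-fold in each fraction between genotypes. All 10 genes lie below 0 in the genotype difference of m6A-tagged over unbound.

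The feedback inhibitor genes shared one order of the fractions. In wild-type cells the m6A-tagged level was the highest and the unbound level the lowest for all 10. The order thus held for 6 of the 6 compared, Socs1 among them, against 39.3% of all genes compared. For Socs3 this order rests on 1 m6A-tagged library, since without it the m6A-tagged mean was 3.89 reads per M (M, 1e6), below input (10.0) and unbound (4.30). In Mettl3-deficient cells this held for 5 of 6, all except Socs1, against 32.8% of all genes. Below the minimum, Spred1 also departed from it, with unbound above input.

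Relative to input, m6A-tagged RNA was only moderately enriched for these genes. In wild-type cells 0 of 6 were 2-fold higher or lower, or 0 of 5 without Socs1, against 3.69% and 5.23% of all genes. The log2 ratios were 0.81 for Socs2, 0.78 for Cish, 0.54 for Dusp2, 0.49 for Dusp6, 0.30 for Socs1 and 0.11 for Dusp1. Their median was 0.52, and that of all genes was 0.06. In Mettl3-deficient cells Socs1 alone was 2-fold higher, with 1.29 and rank 23 from the highest, and 0 were lower, against 1.37% and 1.45% of all genes. Without Socs1 it was 0 of 5. Socs1 passed the minimum through its Mettl3-deficient levels, the m6A-tagged one among them, and the spread of the libraries behind that level is not known. The median of the 6 in Mettl3-deficient cells was 0.33, beside 0.12 for all genes. The genotype difference of this ratio was 2-fold for 0 of 6, or 0 of 5 without Socs1, against 7.31% higher and 2.91% lower among all genes. It was -0.61 for Cish, -0.63 for Socs2 and 0.99 for Socs1, so the JAK inhibitor Socs1 stood opposite to the other 2 STAT-induced genes.

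Relative to the unbound fraction, all 6 were 2-fold higher in wild-type m6A-tagged RNA and 0 lower, or 5 of 5 higher without Socs1. Of all genes 31.5% were higher and 19.3% lower. The log2 ratio was 3.49 for Dusp6, 3.29 for Socs2, 2.50 for Cish, 1.66 for Dusp1, 1.46 for Socs1 and 1.18 for Dusp2. The median was 2.08 beside 0.12 for all genes. In Mettl3-deficient cells 3 of 6 (Socs2, Dusp6, Dusp1) were 2-fold higher and 0 lower, or 3 of 5 higher without Socs1. Of all genes 33.7% were higher and 16.9% lower, and the median was 1.12 for the 6 beside 0.33 for all genes. The genotype difference was at least 2-fold lower for Dusp6 (-1.99), Socs2 (-1.62) and Cish (-1.61), and 2-fold higher for 0. Among all genes 22.8% were lower and 23.7% higher. So 3 of 6, or 3 of 5 without Socs1, is to be read against frequent changes in both directions. All 10 genes had a negative genotype difference, and the median of the 6 was -1.25 beside -0.01 for all genes. Between genotypes these comparisons share the unbound or input levels already given and are not separate evidence.

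The difference in the unbound fraction varied with gene span over all genes. Genomic span, taken from the RefSeq genes of GRCm38.p6, was known for 6288 of the 6295 genes compared. Of the shortest quintile (up to 5829 bases), 33.1% were 2-fold higher in Mettl3-deficient unbound RNA and 7.0% lower. Of the longest quintile (from 37715 bases), 9.94% were higher and 40.2% lower. The feedback inhibitor genes are mostly compact. The 6 compared had a median span of 3571 bases, while all genes had a median of 15994, and Socs1 (1729 bases), Dusp1 (2882), Dusp2 (2219) and Dusp6 (4259) lie in the shortest quintile. Cish (6126 bases) lies in quintile 2, and Socs2 (33419 bases) in quintile 4, of which 14.4% were higher in unbound RNA. The genotype difference of m6A-tagged over unbound was 2-fold lower for 37.8% of the shortest and 13.2% of the longest quintile. In input 5.25% of the shortest and 1.43% of the longest quintile were 2-fold higher, and in m6A-tagged RNA 6.04% and 5.33%. The part of gene span in the unbound results was not tested.

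**Figure D3:**
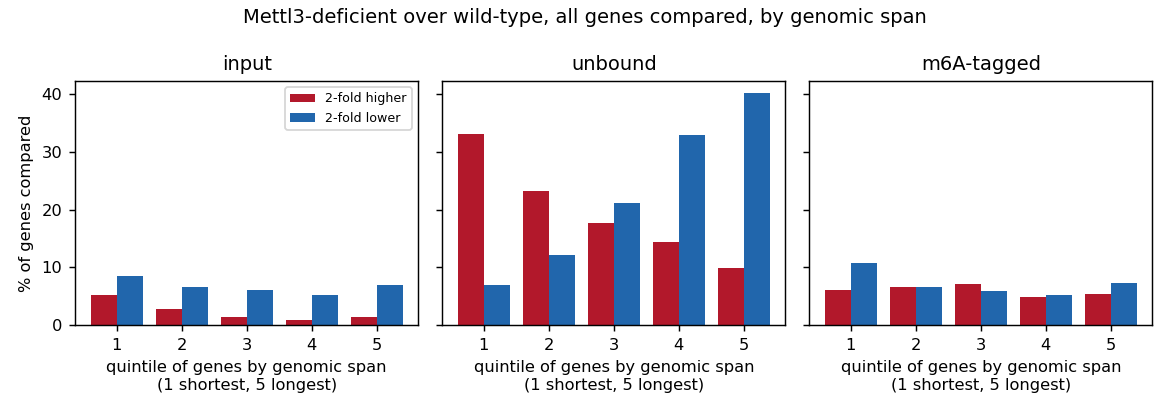
Percent of genes compared that were 2-fold higher (red) or lower (blue) in Mettl3-deficient than in wild-type cells, by quintile of genomic span, for each fraction. In unbound RNA the higher share goes from 33.1% in the shortest to 9.94% in the longest quintile and the lower share from 7.0% to 40.2%.

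Reads of the 3 single libraries could be solved from the deposited means for 4 low genes, Socs1, Socs3, Dusp5 and Spred1, in the groups with exactly 1 whole-read solution. Of Cish, Socs2, Dusp1, Dusp2, Dusp6 and Spry1 no single libraries were solved. The libraries are given in order of depth, which is not their replicate number.

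In wild-type cells the 3 libraries had 7.23, 9.04 and 6.28 Socs1 reads per M in input, 1.35, 2.81 and 3.83 in unbound and 12.7, 6.62 and 9.37 in m6A-tagged RNA. All unbound libraries were below all others, and input and m6A-tagged RNA overlapped. Mettl3-deficient libraries had 17.9, 13.9 and 6.16 Socs1 reads per M in input and 30.8, 22.4 and 11.9 in unbound RNA. Every Mettl3-deficient unbound library lay above every wild-type one, with means of 21.7 ± 9.50 against 2.66 ± 1.24 (SD, n = 3 each), an 8.14-fold ratio with an exact permutation p of 0.1. In input the genotypes overlapped, at 12.7 ± 5.98 against 7.52 ± 1.40 reads per M (SD, n = 3 each, exact permutation p = 0.4). The m6A-tagged libraries of Mettl3-deficient cells had 11 solutions, so the spread behind their Socs1 level of 27.1 RPKM is not known.

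Dusp5 was nearly absent from wild-type unbound RNA in each library, with 0, 33 and 0 reads, or 0, 1.24 and 0 reads per M. Wild-type input had 12.7, 14.6 and 10.9 reads per M, all higher. In Mettl3-deficient cells, Dusp5 had 6.53, 1.01 and 9.64 reads per M in unbound and 8.25, 14.0 and 7.75 in input. The unbound libraries thus overlapped between genotypes, since 1 Mettl3-deficient library lay within the wild-type range (exact permutation p = 0.2, n = 3 each).

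Socs3 showed how 1 library can carry a mean. Wild-type m6A-tagged libraries had 1135, 262 and 0 Socs3 reads, or 32.4, 7.78 and 0 reads per M, so its m6A-tagged level of 4.93 RPKM rests mostly on 1 library. Input had 6.48, 8.80 and 14.8 and unbound 1.94, 4.76 and 6.21 reads per M, and these did not overlap. Mettl3-deficient libraries had 9.01, 20.8 and 10.7 in input and 0, 11.1 and 18.0 in unbound RNA, overlapping each other and the wild-type libraries.

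Spred1 reads were few in each Mettl3-deficient input library, at 42, 103 and 14, or 1.40, 4.66 and 1.49 reads per M. Wild-type input had 2 possible solutions, 26.1, 23.3 and 35.6 or 33.5, 3.41 and 48.1 reads per M. Under the first every wild-type library lies above every Mettl3-deficient one, and under the second 1 wild-type library lies among them. The unbound libraries overlapped, with 3.80, 5.51 and 1.07 reads per M in wild-type and 2.68, 0.575 and 6.21 in Mettl3-deficient cells.

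Of 18 comparisons of single libraries over these 4 genes, 5 had ranges that did not overlap. Wild-type unbound was below input for Socs1, Socs3 and Dusp5, wild-type m6A-tagged was above unbound for Socs1, and Mettl3-deficient was above wild-type unbound for Socs1. With 3 libraries against 3, the two-sided exact permutation test cannot go below 0.1, which each of the 5 reached, and the Benjamini-Hochberg value over the 18 was 0.36. Among genes whose length was known from a group without reads, wild-type unbound was wholly below input for 35.1%, wild-type m6A-tagged wholly above unbound for 8.99%, and Mettl3-deficient unbound wholly above wild-type for 5.57%. Those genes are patchily detected, so they are a loose background.

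**Figure D4:**
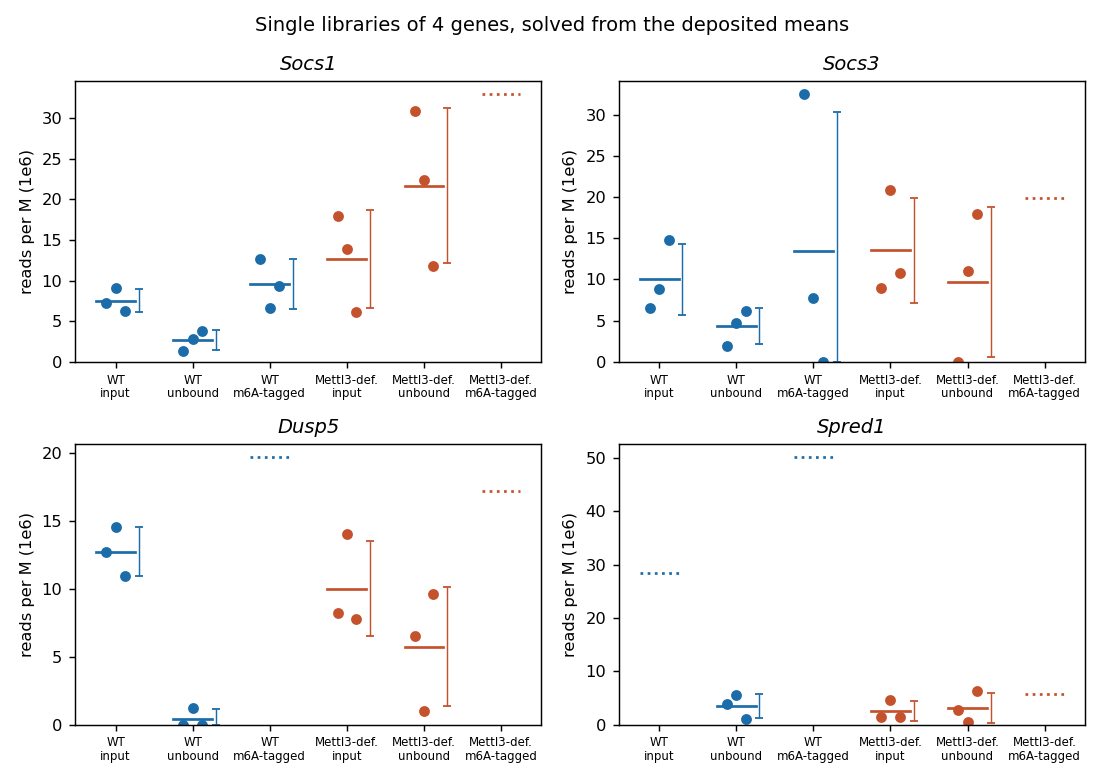
Reads per M of Socs1, Socs3, Dusp5 and Spred1 in single libraries (points), with the mean (line) and SD (bar, cut at 0, n = 3). Dotted lines are means of groups with more than 1 solution. The 3 wild-type unbound libraries of Socs1 lie between 1.35 and 3.83, below the 3 Mettl3-deficient ones at 11.9 to 30.8.

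The rest of the feedback families was low. None of the 4 other SOCS genes, 12 other MAP kinase phosphatases and 5 other Sprouty and Spred genes averaged 10 RPKM. In input 0 of the 4 other SOCS genes differed 2-fold between genotypes. The log2 difference was 0.59 for Socs4, 0.41 for Socs5, 0.30 for Socs6 and -0.88 for Socs7. Of the 12 phosphatases 7 were higher in Mettl3-deficient input to any extent. On the log2(RPKM + 1) scale 1 was 2-fold higher, Dusp10 with 2.51 against 0.669 RPKM, and 1 was 2-fold lower, Dusp3 with 3.58 against 8.95 RPKM. Like Spred1, Spry2 was lower in Mettl3-deficient input, at 0.922 against 3.17 RPKM. Of all 5 other Sprouty and Spred genes, Spry2 was the only one 2-fold lower there on the log2(RPKM + 1) scale, and 0 were higher.

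Inhibitors of other classes, such as the phosphatases Ptpn6 and Ptpn11, the adaptor Sh2b3 and the PIAS proteins, did not share the input difference. Of 13 compared, 0 were 2-fold higher or lower in input, and the largest was Pias4 with 0.77 (25.0 RPKM in wild-type, 43.3 RPKM in Mettl3-deficient cells). Over all 20 listed, 0 were higher and 1 was lower. This was Rasa1, at 16.9 RPKM in wild-type against 4.27 RPKM in Mettl3-deficient input, which averaged under 10 RPKM over the 6 groups. In unbound RNA 3 were higher and 4 lower, near the shares of all genes (19.7% and 22.7%), with Pias4 at 3.11 and Ptpre at -2.26.

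Receptors, JAKs and STATs were mostly lower, where the feedback inhibitor genes were mostly higher, in the unbound fraction. Of 22 compared, 14 were 2-fold lower and 2 higher in the unbound RNA of Mettl3-deficient cells, the lower ones led by the receptor Kit (-3.73) and Stat5a (-2.85). The shares of all genes in that fraction were 22.7% lower and 19.7% higher. The unbound level of Kit was 138 RPKM in wild-type against 9.52 RPKM in Mettl3-deficient cells, and that of Stat5a 33.6 against 3.81 RPKM. The 2 higher ones were the chains of the interferon gamma receptor, Ifngr1 (2.10) and Ifngr2 (1.22). In input 2 of the 22 were 2-fold higher, among them the receptor subunit Csf2rb (1.17), and 1 lower, Csf2ra (-1.21). Of all genes 2.38% were higher and 6.67% lower. Csf2rb averaged 10 RPKM only through its Mettl3-deficient levels. Its levels were 10.3, 2.04 and 12.9 RPKM in wild-type against 24.4, 2.29 and 28.2 RPKM in Mettl3-deficient cells. The median span of the 22 genes was 23779 bases. Of 15 genes compared for RAS proteins, adaptors, RAF and MAP kinases, 0 were 2-fold higher and 3 lower in input, against 2.38% and 6.67% of all genes. The 3 were the MAP kinases Mapk3 (-2.46) and Mapk13 (-2.08) and the adaptor Grb2 (-2.05). The input level of Mapk3, which encodes ERK1, was 55.7 RPKM in wild-type against 9.31 RPKM in Mettl3-deficient cells.

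Immediate early genes, which MAP kinases induce within minutes, resembled the feedback inhibitor genes in unbound but not in input RNA. Of 9 compared, 6 were 2-fold higher and 0 lower in the unbound RNA of Mettl3-deficient cells, led by Myc (2.84) and Jun (2.69). The shares of all genes there were 19.7% higher and 22.7% lower. By span 8 of the 9 lie in the shortest quintile, of which 33.1% were higher and 7.0% lower in unbound RNA. In input only Fos was 2-fold higher, at 179 against 57.0 RPKM (1.63), and 0 were lower, against 2.38% and 6.67% of all genes. The STAT target list shares Junb, Mcl1 and Myc with it. Of its 15 genes compared, 2 were 2-fold higher in input and 1 lower, against 2.38% and 6.67% of all genes. The higher ones were Irf1 (1.29) and the kinase gene Pim2 (1.26), and the lower one was Gadd45g (-1.19). Pim1 was at 6.23 against 11.9 RPKM. In m6A-tagged RNA 3 of the 15 STAT targets were 2-fold higher and 1 lower, against 6.02% and 7.15% of all genes. The higher ones were Pim2 (2.01), Irf1 (1.34) and Id1 (1.08), the lower one Gadd45g (-1.34). Id1 averaged 10 RPKM only through its Mettl3-deficient levels, so its being higher follows in part from the choice. Its levels were 7.48, 2.80 and 10.3 RPKM in wild-type against 15.2, 16.5 and 22.8 RPKM in Mettl3-deficient cells. No test compared these lists with each other or with the feedback inhibitor genes.

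**Figure D5:**
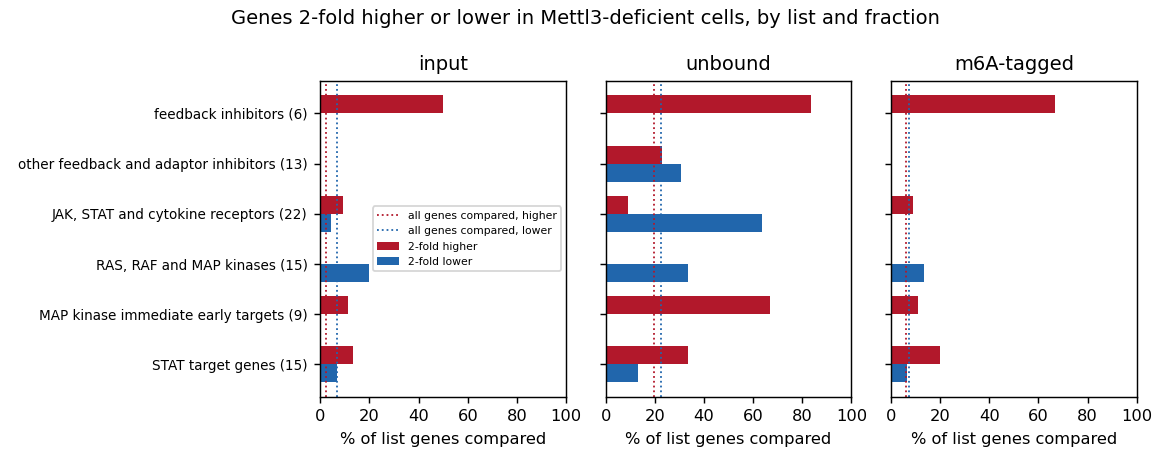
Percent of each list's genes (number compared in brackets) that were 2-fold higher (red) or lower (blue) in Mettl3-deficient cells, with the share of all genes compared as dotted lines. In unbound RNA 5 of 6 feedback inhibitor genes and 6 of 9 immediate early genes are higher, and 14 of 22 JAK, STAT and receptor genes are lower.

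Over the 6 groups, the genes whose centred log2(RPKM + 1) profile was nearest to the median profile of the 6 compared inhibitors were Ddx28 (Euclidean distance 0.317), Traf4 (0.417), Zbed3 (0.506), Accs (0.51) and Slc19a1 (0.532). Dusp1 was the nearest of the inhibitors themselves (0.488), and Spred1 the farthest (3.89). Ddx28 had levels of 6.93, 1.77 and 13.3 RPKM in wild-type against 21.0, 10.5 and 31.4 RPKM in Mettl3-deficient cells. Traf4 had levels of 8.52, 1.26 and 13.0 RPKM in wild-type against 16.1, 12.1 and 24.5 RPKM in Mettl3-deficient cells. Ddx28 and Traf4 averaged 10 RPKM only through their Mettl3-deficient levels, so their nearness follows in part from the choice.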

How the data were processed

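The authors deposited RPKM values in 2 tables, 1 per genotype, each with 1 column per fraction. Per the submitters' processing notes, the genome build was mm10, and the tools included Picard and edgeR, in unstated roles and versions. Which aligner and counter were run is not given in the sources used here. From the numbers, most low values tried fit the mean over 3 libraries of reads plus 1, divided by gene length and effective library size. Spry1 had no whole-read solution at any length tried from 300 to 4500 bases, and the reason is not known.

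The tables were joined on gene identifier (23038 genes), and 1 RPKM was added before taking log2. Genes averaging 10 RPKM or more were compared, and 2-fold was counted as higher or lower. A pooled column allows no test, so the planned limma fit was not used. The added 1 RPKM shrinks the differences of low genes.

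Single-library reads were solved with numpy 2.4.6 and numba 0.67.0 where whole reads at 1 gene length fitted (lengths from 300 to 4500 bases). Of 9822 low values tried, 95.7% had exactly 1 solution. On simulated data of 23038 genes, 53 of 60 sparse genes were given a length, all 53 right, and 285 of 285 values with 1 solution equalled the simulated reads. For simulated input, Mettl3-deficient over wild-type, with a dispersion of 0.2, 97.5% of 200 genes changed 4-fold passed 2-fold, as did 6.02% of unchanged genes. Exact permutation tests were two-sided.

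Genes were named by rule: the 10 inhibitors, up to 2 genes per list with the largest difference in each direction, and the 5 genes nearest in profile. Beyond that rule Grb2, Pim1, Id1, Rasa1 and the low family members were named after their values were seen. Gene span, the counts without Socs1 and the Socs3 value without 1 library were added then too. The members and lists were chosen with earlier results of these data known. Alternatives were other added amounts, minimums and scalings.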

Additional observations from a re-analysis of the deposited data

How the results depend on the processing

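Of the counts of feedback inhibitor genes past 2-fold, those for all comparisons kept within 1.5 times their value except as follows. With 0.1 RPKM added, 1 gene (Socs1, 1.03) was past 2-fold in the genotype difference of m6A-tagged over input. With no minimum level, m6A-tagged over unbound gave 10 genes in wild-type, 5 in Mettl3-deficient cells and 5 in the genotype difference. With a minimum of 50 RPKM only Cish and Dusp2 were compared, and m6A-tagged over unbound gave 2 genes in wild-type, 0 in Mettl3-deficient cells and 1 in the genotype difference. That minimum also gave 0 genes in m6A-tagged over input of Mettl3-deficient cells and 1 gene each in input, unbound and m6A-tagged RNA between genotypes, since fewer genes were tested. Without Socs1, an alternative chosen after seeing the data, 0 of 5 genes were past 2-fold in m6A-tagged over input of Mettl3-deficient cells, since the only one was Socs1 itself. With upper-quartile scaling 5 genes were past 2-fold in m6A-tagged over unbound of Mettl3-deficient cells. The cause of the changes with the added amount and the scaling was not tested. No direction reversed in any of these settings. Of the single genes, 4 results dropped under 2-fold and 5 passed it. With 5 RPKM added, the Dusp6 unbound difference was 0.99, the Socs2 genotype difference of m6A-tagged over unbound -0.69 and the Socs1 wild-type ratio of m6A-tagged over unbound 0.83. Median-ratio scaling moved the median of all genes in the unbound difference to 0.18 and in the genotype difference of m6A-tagged over unbound to -0.16, and brought Dusp1 in Mettl3-deficient m6A-tagged over unbound to 0.98. Under upper-quartile scaling that median was 0.33 in wild-type m6A-tagged over unbound. Without scaling to library size, again 5 of the 18 single-library comparisons had ranges apart.

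No paired analysis was possible because the deposited columns are means over replicates and the solved libraries carry no replicate number. For the same reason no replicate was left out. Depth limits the single-library values to low genes, and Spry1, though low, could not be solved.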
